A study of Homo sapiens with 9 samples.

Results

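S100 proteins are small calcium sensors. Each chain carries a pair of EF-hand loops, most members work as dimers, and binding of calcium opens a surface that grips a target protein such as an annexin, a myosin or a receptor. In the epidermis several of them are abundant in the cytoplasm, some are crosslinked into the cornified envelope, and S100A8 and S100A9 are released as the antimicrobial pair calprotectin in inflamed skin. The 10 genes described here, of 60671 listed in the count files, are a fixed list of S100 genes of keratinocytes, not all those detected. They are S100A2, S100A4, S100A6, S100A8, S100A9, S100A10, S100A11, S100A14, S100A16 and S100P. They were taken by their symbols, with no threshold on their values, and all 10 were among the 13390 genes with enough counts to be tested.

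Polyadenylated RNA was sequenced from N/TERT cells, human epidermal keratinocytes immortalised with telomerase, which received no treatment. The 3 groups of 3 libraries were cells with a CRISPR knockout of SGPL1 (SGPL1 KO), cells that overexpressed SGPL1 (SGPL1 OE) and unedited control cells (WT). SGPL1 is sphingosine-1-phosphate lyase, which degrades the signalling lipid sphingosine-1-phosphate, and the study set these cells side by side in connection with an ichthyosis that accompanies loss of the enzyme. The submitters regard the libraries of a group as biological replicates. How many clones were edited and which promoter drove the transgene are not given in the sources used here, so p-values measure the spread between these libraries. Gene counts summed to between 6317564 and 13330479 per library. SGPL1 had 58.8, 58.3 and 61.6 counts per 1000000 counts (CPM) in KO, 1132, 1104 and 929 CPM in OE and 83.9, 95.1 and 98.3 CPM in control libraries, with all its exons counted. All 8 keratinocyte markers examined (KRT5, KRT14, TP63, ITGA6, ITGB4, DSP, DSG3 and COL17A1) were present, and their summed level was 11972 to 12858 CPM in KO, 24700.2 to 25331 CPM in OE and 22413 to 23136 CPM in control libraries. The third OE library stood apart from the other OE libraries, with chi-square values per degree of freedom of 11.6 and 10.9 against them, compared with 4.37 between those.

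In all, 9 of the genes lie on chromosome 1, between the start of S100A10 at base 151982915 and the end of S100A14 at base 153616986 of GRCh38, within the epidermal differentiation complex at 1q21. S100P lies alone on chromosome 4, at chr4:6693878-6697170 on the plus strand. S100A9 (chr1:153357854-153361023) is on the plus strand, and the other 8 genes of chromosome 1, S100A8 (chr1:153390032-153391073) and S100A6 (chr1:153534599-153536244) among them, are on the minus strand. Their exons add up to between 471 bases in S100P and 1701 bases in S100A16, so that all 10 fall in the shortest decile of the tested genes (68 to 1826 bases). Another annotated gene shares exon bases with 1 of them: 23 bases of S100A6, or 2.37% of its exons, are also covered on the opposite strand by ENSG00000238279, which had 11 counts over the 9 libraries together.

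The promoters of the 4 genes with the largest fold changes in KO cells, chosen after their values were seen, are given so that their upstream sequences can be set side by side with their expression. They are RefSeq windows on GRCh38.p14 of 250 bases before and 50 bases after a start site, written 5′ to 3′ on the gene's own strand, with matches to the C/EBP motif TTNNGNAA and to the TATA box TATAAA in capitals. For S100A8, which has 3 windows, the one shown holds its TATA box at the usual distance. All 10 genes had a window in the table.
S100A9, chr1:153357604-153357903, plus strand: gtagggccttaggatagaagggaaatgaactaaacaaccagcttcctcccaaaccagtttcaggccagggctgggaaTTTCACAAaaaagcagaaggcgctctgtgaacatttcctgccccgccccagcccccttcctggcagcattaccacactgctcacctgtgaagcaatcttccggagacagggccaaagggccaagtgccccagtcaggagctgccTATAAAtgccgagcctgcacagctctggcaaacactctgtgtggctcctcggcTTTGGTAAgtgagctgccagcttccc
S100A8, chr1:153391024-153391323, minus strand: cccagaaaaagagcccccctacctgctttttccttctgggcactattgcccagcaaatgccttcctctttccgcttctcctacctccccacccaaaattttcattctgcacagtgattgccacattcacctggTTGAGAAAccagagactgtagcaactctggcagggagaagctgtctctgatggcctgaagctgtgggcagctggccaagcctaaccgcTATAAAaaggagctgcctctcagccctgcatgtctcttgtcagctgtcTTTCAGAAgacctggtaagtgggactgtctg
S100A6, chr1:153535942-153536241, minus strand: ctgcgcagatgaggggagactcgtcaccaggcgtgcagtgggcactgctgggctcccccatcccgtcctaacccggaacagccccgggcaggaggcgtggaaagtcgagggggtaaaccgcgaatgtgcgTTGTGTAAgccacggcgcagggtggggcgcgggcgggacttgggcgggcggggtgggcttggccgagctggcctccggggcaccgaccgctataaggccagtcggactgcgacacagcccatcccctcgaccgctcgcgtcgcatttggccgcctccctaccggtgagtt
S100P, chr4:6693628-6693927, plus strand: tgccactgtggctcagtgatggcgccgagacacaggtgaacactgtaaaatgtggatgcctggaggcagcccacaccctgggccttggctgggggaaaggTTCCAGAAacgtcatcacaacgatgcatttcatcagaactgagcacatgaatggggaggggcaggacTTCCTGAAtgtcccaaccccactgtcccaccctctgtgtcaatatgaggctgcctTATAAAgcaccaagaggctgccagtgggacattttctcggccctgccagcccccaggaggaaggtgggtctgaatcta

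A TATA box began 29 bases before the start site in S100A9 and in S100A8 and 28 bases before it in S100P, whereas the S100A6 window held none with these letters. C/EBP matches began at -173 and 24 in S100A9, at -117 and 19 in S100A8, at -120 in S100A6 and at -150 and -83 in S100P, relative to the start site. Both strands were searched. Over the 14 windows of the 10 genes, of which the 3 of S100A8 overlap, the C/EBP motif was found in 8, the TATA box in 5, the AP-1 motif TGANTCA in 1 (S100A2, at -52) and an NF-kB motif in 1 (S100A14, at -202). Among all 35116 windows of the table the same motifs were found in 36.8%, 11.5%, 7.71% and 5.68%. The S100A4 window held only a TATA box, at -31, and no motif was found in the S100A10 window. These matches describe letters in the windows and not binding.

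Levels per kilobase of exon, the scale used here to compare different genes, ran from S100A14 at the top to S100A4 or S100A8 at the bottom. Exon length here sums all annotated exons of a gene, and the main transcript in GENCODE 29 can differ from it. That transcript has 998 bases against 1546 in S100A2, 673 against 971 in S100A6 and 1202 against 1012 in S100A10. With such lengths S100A2 and S100A6 would be higher and S100A10 lower, and the order was not computed with them. S100A14, a gene typical of epithelia, had the highest level in all 3 groups, with 1486 ± 41.5 CPM per kb in KO, 1128 ± 92.3 CPM per kb in OE and 1185 ± 35.6 CPM per kb in control cells (SD, n = 3 each). S100A10 was next on this scale, with 1180.2 ± 100.1 CPM per kb in KO, 954 ± 101.3 CPM per kb in OE and 1007 ± 110.2 CPM per kb in control cells (SD, n = 3 each). The order then differed between groups in the place of S100A6, which had rank 3 in KO cells and rank 7 in OE and in control cells.

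In KO cells the order by mean level per kilobase was S100A14, S100A10, S100A6, S100A2, S100A11, S100P, S100A16, S100A9, S100A8 and S100A4. The ranges over the libraries overlapped between each neighbouring pair from S100A10 to S100P, between S100A16 and S100A9, and between S100A8 and S100A4, so these places were not separated. In OE and in control cells the order was S100A14, S100A10, S100A11, S100A2, S100A16, S100P, S100A6, S100A9, S100A4 and S100A8. Overlapping neighbours in OE cells were S100A14 with S100A10, S100A10 with S100A11, S100A11 with S100A2, S100P with S100A6, and S100A4 with S100A8. In control cells they were S100A11 with S100A2, S100A16 with S100P, S100P with S100A6, and S100A4 with S100A8. Together the 10 genes took 0.755%, 0.674% and 0.746% of all counts in KO, 0.507%, 0.489% and 0.604% in OE and 0.608%, 0.559% and 0.539% in control libraries, so every KO library lay above every other library.

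**Figure D1:**
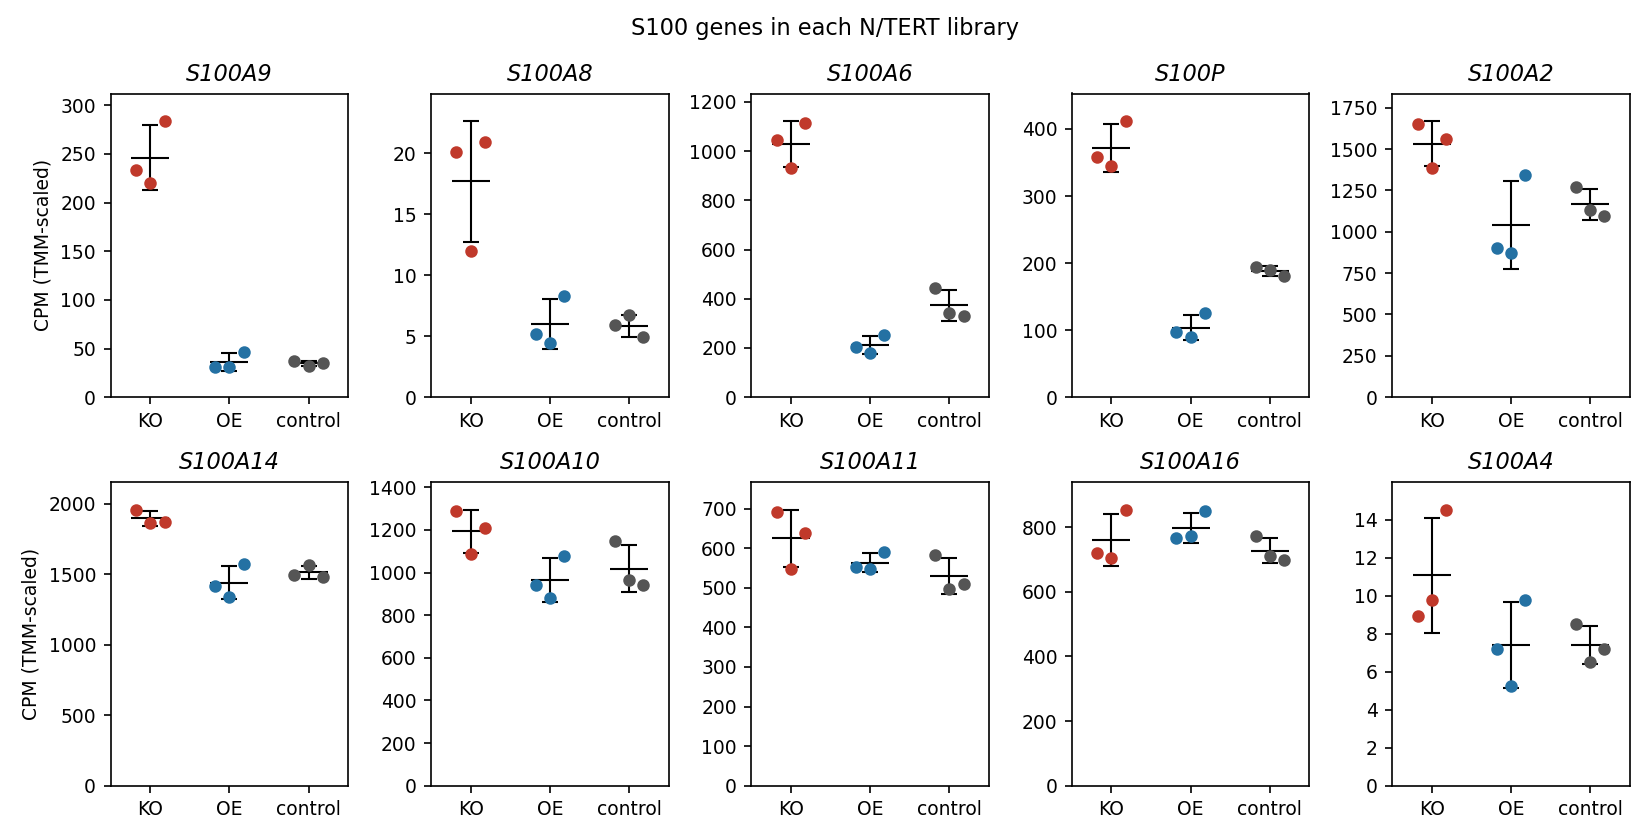
TMM-scaled CPM (vertical axis, starting at 0, with its own scale for each gene) of the 10 S100 genes in KO, OE and control cells. Points are libraries, the horizontal bar is the mean and the whiskers are the SD (n = 3). KO libraries lie above all others for S100A9, S100A8, S100A6, S100P, S100A14 and, by a narrow margin, S100A2, and OE libraries lie below the control libraries for S100A6 and S100P.

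Against control, KO cells had more RNA of 8 of the 10 genes and less of none, and 2 did not pass the test (edgeR's quasi-likelihood test, Benjamini-Hochberg adjusted p under 0.05 over all tested genes). Of all 13390 tested genes 51.9% passed in this comparison, 26.0% higher and 25.9% lower in KO. The median log2 fold change was 0.48 over the 10 genes and -0.0047 over all genes. KO and control libraries did not overlap for 7 of the 10, against 59.5% of all tested genes. S100A9, S100A8, S100A6 and S100P were higher in KO by 7.08-, 2.99-, 2.76- and 1.97-fold, and the other 4 that passed by 1.31-fold or less. In bulk RNA, a change in the number of cells that express a gene and a change in RNA per cell cannot be told apart. The summed level of the keratinocyte markers given above, made up mostly of KRT5 and KRT14, was lower in every KO library than in any other. The markers did not all follow the sum. TP63 was higher in every KO library than in any other, and DSG3 overlapped between KO and OE libraries. The part of these markers in the S100 values was not tested.

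Fold changes in KO cells ran with exon length across all tested genes. The shortest decile, in which all 10 genes lie, had a median log2 fold change of 0.52 in KO against control, with 43.6% of its genes higher and 6.42% lower, whereas the longest decile had a median of -0.45. The slope of log2 CPM on a doubling of exon length, relative to the mean of all libraries, was -0.15, -0.13 and -0.15 in KO, 0.10, 0.12 and 0.0012 in OE and 0.05, 0.08 and 0.09 in control libraries. With the trend over exon length and GC content removed from each library, here called the corrected fit, 4 of the 10 genes were higher in KO than in control, 3 were lower and 3 did not pass, where 45.5% of all tested genes passed, 24.7% higher and 20.8% lower. The corrected median of the 10 genes was 0.02, and that of the shortest decile was 0.14. The cause of the trend was not tested. S100A9, S100A6, S100P and S100A8 were the 4 that passed as higher in both fits.

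**Figure D2:**
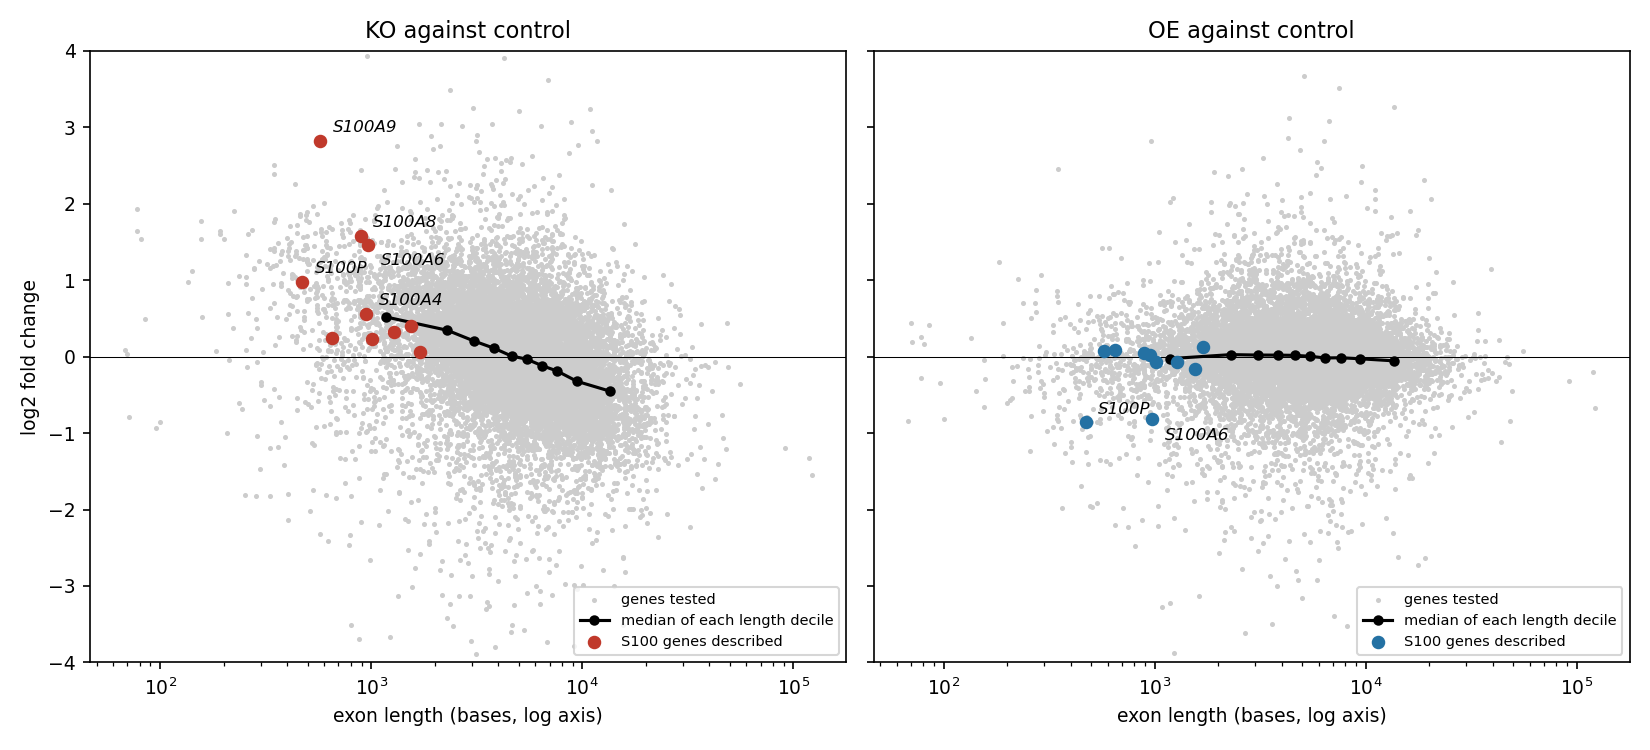
Log2 fold change (vertical axis) against exon length in bases (log axis) for KO against control and OE against control. Grey points are the tested genes within ±4, the black line joins the medians of the length deciles, and coloured points are the 10 S100 genes, with names for those beyond ±0.5. In KO cells the decile medians fall from 0.52 to -0.45 with length, and S100A9, S100A8, S100A6, S100P and, at 0.56, S100A4 lie above the 0.52 of the shortest decile.

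Calprotectin is formed by S100A8 and S100A9, which bind calcium, zinc and manganese and act outside the cell through TLR4 and the receptor for advanced glycation end products (AGER). S100A9 had 234, 220.5 and 284 CPM in KO, 30.9, 30.9 and 46.3 CPM in OE and 36.8, 31.8 and 35.5 CPM in control libraries. Every KO library was far above the other 6, while OE and control libraries overlapped. The log2 fold change was 2.82 ± 0.13 in KO against control (adjusted p = 2.71e-13 by edgeR's quasi-likelihood test) and 0.07 ± 0.14 in OE against control (adjusted p = 0.781). Corrected for length and GC content it was 2.25 ± 0.10 in KO against control (adjusted p = 6.35e-16).

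Its partner S100A8 was much less abundant, with 20.1, 11.998 and 20.97 CPM in KO, 5.20, 4.44 and 8.31 CPM in OE and 5.89, 6.74 and 4.94 CPM in control libraries. KO libraries were above all others and varied among themselves, the second being the lowest. The log2 fold change was 1.58 ± 0.25 in KO against control (adjusted p = 1.49e-05, corrected 1.04 ± 0.23 with adjusted p = 0.000536) and 0.05 ± 0.27 in OE against control (adjusted p = 0.925). Per kilobase of exon, S100A9 exceeded S100A8 by a ratio of 18.1 to 28.6 in KO, 8.66 to 10.8 in OE and 7.34 to 11.2 in control libraries, and KO libraries did not overlap the others. The main transcript of S100A8 in GENCODE 29 has 523 bases against 891 of summed exons, and with that length the ratios would be lower. In counts not divided by length the ratio was 11.6 to 18.4 in KO, 5.57 to 6.98 in OE and 4.72 to 7.18 in control libraries. Calprotectin also abounds in myeloid cells. Of 8 myeloid and neutrophil markers, PTPRC, FCGR3B, MPO and LYZ had no count in any library, and the summed level of the list was 6.84 to 8.92 CPM in KO, 0.885 to 1.90 CPM in OE and 3.16 to 4.80 CPM in control libraries. CD14, which keratinocytes can also express, made up most of that sum, with 4.60 to 7.78 CPM in KO, 0.885 to 1.90 CPM in OE and 2.32 to 4.80 CPM in control libraries. Of the Langerhans cell markers, CD1A and HLA-DRA had no count, and the list summed to 0 CPM in KO, at most 0.101 CPM in OE and at most 0.225 CPM in control libraries.

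S100A6, or calcyclin, binds CACYBP and annexins in proliferating epithelial cells. It had 1046, 930.5 and 1113 CPM in KO, 204, 181 and 251 CPM in OE and 446, 344 and 329 CPM in control libraries, and the 3 groups did not overlap. It was 2.76-fold higher in KO than in control (log2 fold change 1.47 ± 0.11, adjusted p = 4.37e-10) and 1.76-fold lower in OE than in control (-0.81 ± 0.11, adjusted p = 1.49e-05). The corrected values were 1.08 ± 0.09 in KO (adjusted p = 6.38e-11) and -0.79 ± 0.09 in OE (adjusted p = 1.12e-07).

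S100P, which binds ezrin at the cell cortex and signals through AGER when released, was ordered in the same way. It had 359, 345 and 412 CPM in KO, 97.1, 89.0 and 125 CPM in OE and 195, 189 and 181 CPM in control libraries, again without overlap between groups. The log2 fold change was 0.98 ± 0.10 in KO against control (adjusted p = 2.67e-08) and -0.86 ± 0.10 in OE against control (adjusted p = 1.91e-06). Removal of the length and GC trend brought the value in KO to 0.34 ± 0.07 (adjusted p = 0.000391) and that in OE to -0.74 ± 0.08 (adjusted p = 3.71e-08). S100P has the shortest exons of the 10 in the count files, but GENCODE 29 holds a transcript of 1279 bases for it, and with such a length its level per kilobase and its rank among the 10 would be lower. The correction with that length was not run.

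S100A10 and S100A11, which are known for their annexin partners, differed between any pair of groups by 1.24-fold or less in the fitted values. S100A10, also called p11, forms a complex with annexin A2 at the plasma membrane and has lost calcium binding. It had 1288, 1087 and 1208 CPM in KO, 939.9, 879 and 1079 CPM in OE and 1147, 966 and 944 CPM in control libraries, so the groups overlapped between KO and control and between OE and control. Its log2 fold change in KO against control was 0.23 ± 0.09 (adjusted p = 0.0406), which did not pass when control 2, control 3, KO 1 or KO 3 was left out (adjusted p from 0.0833 to 0.188), and the corrected value was -0.25 ± 0.07 (adjusted p = 0.00690). The direction in KO turned with the correction.

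S100A11, or calgizzarin, binds annexin A1 and is a substrate of transglutaminase in the cornified envelope. It had 691, 548 and 638 CPM in KO, 553, 548 and 591 CPM in OE and 583, 497 and 511 CPM in control libraries, and all 3 groups overlapped. In KO against control the fitted value was 0.24 ± 0.09 (adjusted p = 0.0259), which did not pass without any 1 of the same 4 libraries (adjusted p from 0.0642 to 0.158), and the corrected value was -0.35 ± 0.08 (adjusted p = 0.000937). S100A10 and S100A11 did not pass in OE against control (adjusted p = 0.632 and 0.546).

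S100A2, a nuclear and cytoplasmic member of basal keratinocytes and a target of the p53 family, had 1654, 1385 and 1559 CPM in KO, 902, 869 and 1345 CPM in OE and 1272, 1133 and 1095 CPM in control libraries. All KO libraries exceeded the others, by a narrow margin over the third OE library. Its log2 fold change in KO against control was 0.39 ± 0.12 (adjusted p = 0.00738, and 0.0732 by DESeq2's Wald test), with a corrected value of -0.01 ± 0.09 (adjusted p = 0.929). In OE against control it was -0.17 ± 0.12 and did not pass (adjusted p = 0.371), but without the third OE library it was -0.39 and passed (adjusted p = 0.000977).

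S100A14 and S100A16 are neighbours on chromosome 1 with an epithelial pattern of expression. In KO against control S100A14 passed as higher and S100A16 did not pass, and the difference between their fold changes was not tested. S100A14 had 1959, 1867 and 1868 CPM in KO, 1414, 1339 and 1570.0 CPM in OE and 1497, 1565 and 1479 CPM in control libraries, with KO above all others. Its log2 fold change in KO against control was 0.33 ± 0.08 (adjusted p = 0.000981, corrected -0.14 ± 0.07 with adjusted p = 0.102). S100A16 had 722, 706 and 854 CPM in KO, 767, 772 and 849.7 CPM in OE and 772, 709 and 700.0 CPM in control libraries, with overlap between all groups. Its value in KO against control was 0.06 ± 0.08 (adjusted p = 0.540) and, corrected, -0.26 ± 0.07 (adjusted p = 0.00339). Per kilobase, S100A14 exceeded S100A16 by a ratio of 2.91 to 3.62 in KO, 2.31 to 2.46 in OE and 2.59 to 2.94 in control libraries, so that KO and control overlapped. The main transcript of S100A16 in GENCODE 29 has 1146 bases against 1701 of summed exons, and with that length the ratios would be lower. In counts not divided by length the ratio was 2.19 to 2.71 in KO, 1.73 to 1.85 in OE and 1.94 to 2.21 in control libraries.

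S100A4, which binds the heavy chain of non-muscle myosin IIA and is better known from mesenchymal and metastatic cells, was near the bottom of the range. It had 8.92, 9.76 and 14.5 CPM in KO, 7.19, 5.24 and 9.77 CPM in OE and 8.51, 6.53 and 7.19 CPM in control libraries. KO libraries were above the control libraries by a narrow margin and overlapped the OE libraries. The log2 fold change in KO against control was 0.56 ± 0.25 and did not pass (adjusted p = 0.0625), although it did without KO 1, OE 2 or OE 3 (adjusted p from 0.0417 to 0.0481) and when KO and control libraries alone were fitted (adjusted p = 0.0414). The corrected value was 0.06 ± 0.23 (adjusted p = 0.859). The 6 fibroblast markers examined, of which LUM had no count, summed to 8.46 to 13.3 CPM in KO, 24.1 to 28.0 CPM in OE and 21.3 to 28.5 CPM in control libraries, with COL1A1 the only one of them that could be tested.

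**Figure D3:**
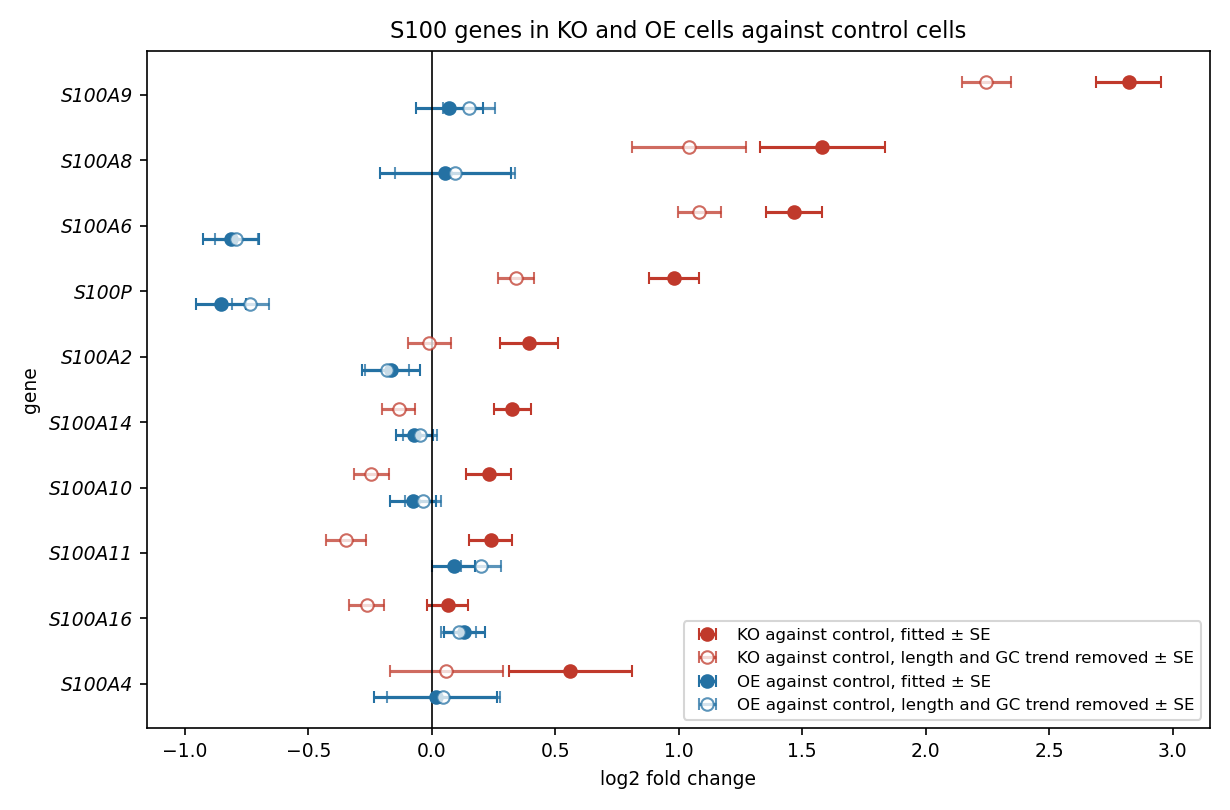
Log2 fold change (horizontal axis) of the 10 S100 genes, listed down the page, in KO against control (red) and OE against control (blue). Filled points are the fitted values and open points those with the exon length and GC trend removed, and bars are ± SE. The KO values of S100A9, S100A8, S100A6, S100P and, at 0.06 in the corrected fit, S100A4 stay right of 0 in both fits, those of S100A10, S100A11, S100A14 and S100A16 move to its left, that of S100A2 comes to -0.01, and in OE cells only S100A6 and S100P lie well below 0.

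In OE cells against control, 2 of the 10 genes were lower, S100A6 and S100P, none was higher and 8 did not pass. Of all tested genes 18.6% passed, 9.28% higher and 9.34% lower in OE, and the median over the 10 genes was -0.03. The counts were the same in the corrected fit, where 21.2% of all tested genes passed, 10.6% higher and 10.5% lower. OE and control libraries did not overlap for the same 2 genes, against 34.8% of all tested genes. The comparisons of KO and of OE cells share their control libraries, so the opposite signs of S100A6 and S100P in them are not independent.

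Set directly against OE cells, KO cells had more RNA of 7 of the 10 genes and less of none, and 3 did not pass, where 57.6% of all tested genes passed, 28.6% higher and 29.0% lower in KO. S100A9 was 6.74-fold, S100A6 4.85-fold, S100P 3.57-fold and S100A8 2.88-fold higher in KO than in OE (adjusted p between 7.33e-14 and 1.40e-05), and all 4 stayed higher in the corrected fit, with log2 fold changes of 2.10, 1.88, 1.08 and 0.95. S100A2 (0.56), S100A14 (0.40) and S100A10 (0.31) also passed as higher on the log2 scale, whereas S100A11 (0.15, adjusted p = 0.148), S100A16 (-0.07, adjusted p = 0.510) and S100A4 (0.55, adjusted p = 0.0603) did not. S100A4 passed without KO 1 (adjusted p = 0.0395) or OE 3 (0.0111), and S100A11 without KO 2 (0.0348). In the corrected fit, where 53.2% of all tested genes passed, 28.0% higher and 25.2% lower, S100A10, S100A11 and S100A16 were lower in KO, with log2 fold changes of -0.21, -0.54 and -0.37. KO and OE libraries did not overlap for 7 of the 10 genes, against 61.6% of all tested genes.

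Of the 11 other protein-coding S100 genes in the files, 5 had no count in any library and 3 could be tested. S100A13, which takes part in the non-classical release of growth factors, had 20.5 ± 2.74 CPM in KO, 9.68 ± 0.941 CPM in OE and 9.25 ± 1.26 CPM in control cells (SD, n = 3 each) and was higher in KO than in control (1.14 ± 0.18, adjusted p = 1.23e-05, corrected 0.90). S100A3, a protein of the hair cuticle, went the other way, with 2.44 ± 0.785 CPM in KO, 7.09 ± 2.08 CPM in OE and 6.22 ± 1.0 CPM in control cells (SD, n = 3 each) and a log2 fold change of -1.34 ± 0.32 in KO against control (adjusted p = 0.00117, corrected -1.79). S100A1, best known from heart muscle, did not pass (-1.97, adjusted p = 0.0548), and none of the 3 passed in OE against control. S100A12, S100A7 and S100A5 had too few counts to be tested, with 24, 12 and 8 counts in KO, 0, 2 and 5 in OE and 10, 4 and 0 in control cells over the 3 libraries of each group. S100A7, or psoriasin, and S100A12 are, like S100A8 and S100A9, S100 proteins of inflamed epidermis. Of the 7 fused-type S100 genes, which join an S100 domain to the repeats of a cornified envelope protein, TCHH was the only gene with enough counts and did not pass in any comparison, and FLG (filaggrin) had 2 counts in KO, 0 in OE and 10 in control cells.

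The genes around the S100 genes of chromosome 1, most of them outside the epidermal differentiation complex, had fold changes on both sides of 0 in KO cells. Among the 107 tested genes outside the S100 family within 2 Mb of one of them, 19 (17.8%) were higher and 33 (30.8%) lower in KO than in control, with a median log2 fold change of -0.08 (-0.14 corrected). The other 477 tested genes of the long arm of chromosome 1 had 196 higher and 71 lower with a median of 0.25, and genes of the other chromosomes had 25.4% higher and 26.1% lower with a median of -0.01. In OE against control, 9 of the 107 genes (8.41%) were higher and 19 (17.8%) lower, with a median of -0.08, against 8.92% higher and 9.38% lower of the genes of the other chromosomes. Of 32 genes for cornified envelope precursors and late envelope proteins of the complex, 4 had enough counts to be tested, and none of those passed in KO against control, although SPRR1B was lower in the corrected fit (-0.81, adjusted p = 0.000141). In OE against control SPRR1B (0.92 ± 0.17, adjusted p = 0.000300) and SPRR2D (1.63 ± 0.43, adjusted p = 0.00997), small proline-rich envelope proteins, were higher, and IVL (involucrin, -0.33 ± 0.10, adjusted p = 0.0202) was lower. With 1 library left out, the adjusted p rose to 0.0727 for SPRR2D and 0.104 for IVL, and SPRR1B passed in every such fit.

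**Figure D4:**
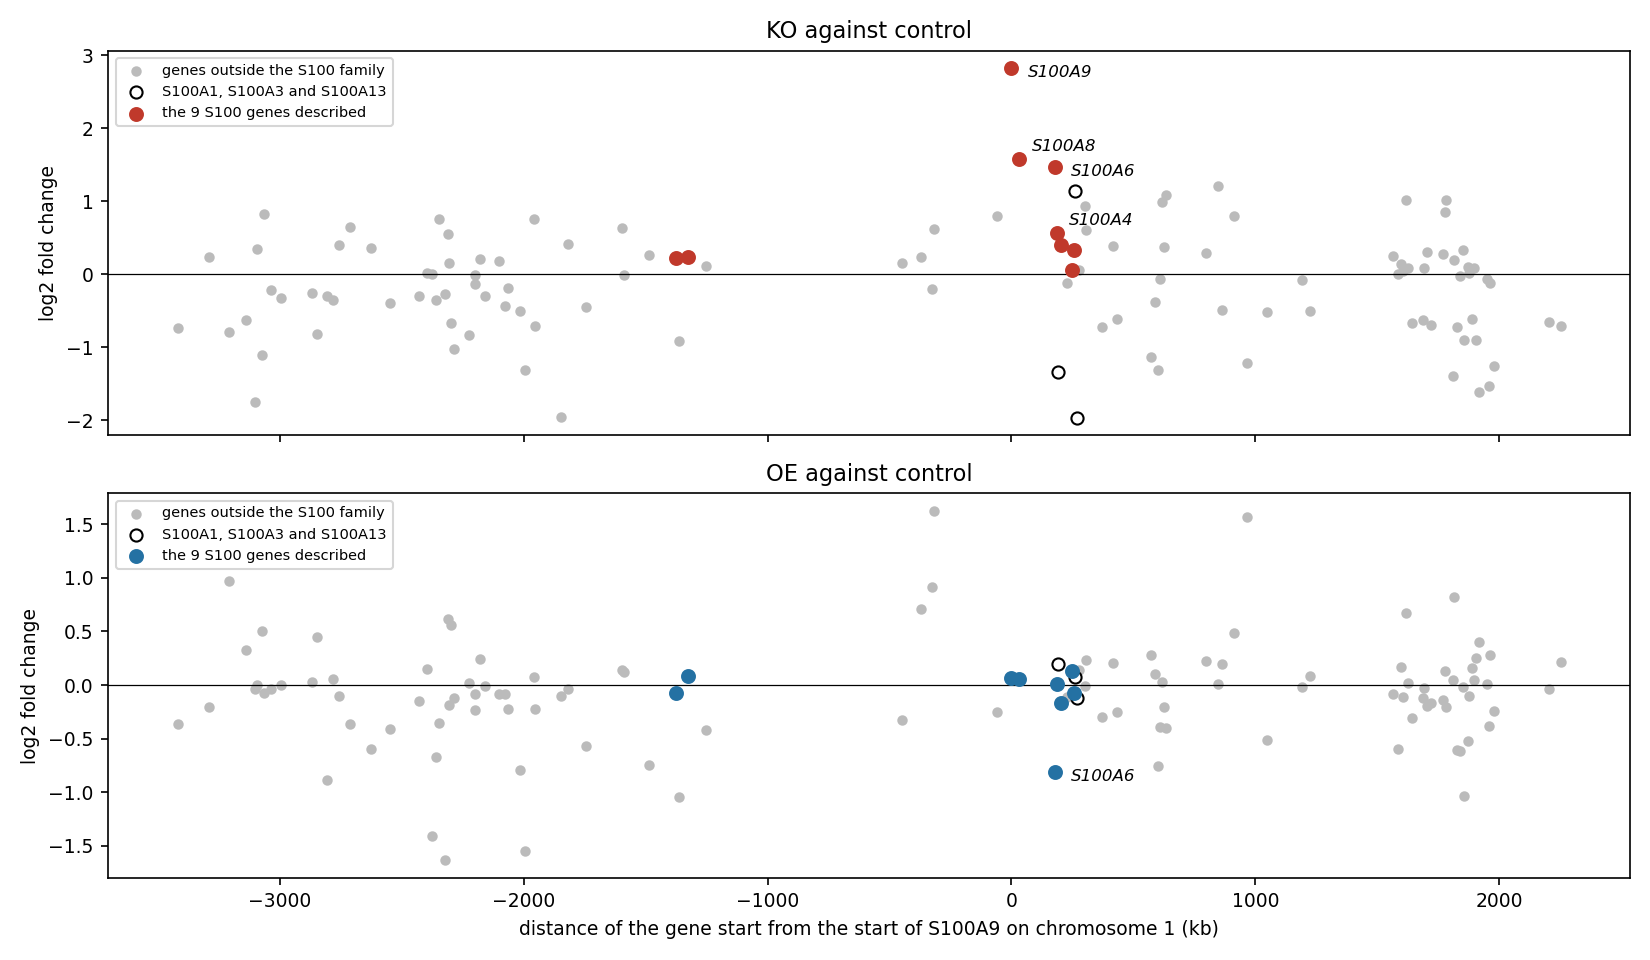
Log2 fold change (vertical axis) of tested genes near the S100 genes of chromosome 1 against the distance in kb of the gene start from the start of S100A9, for KO against control (top) and OE against control (bottom). Grey points are the 107 genes outside the family, open points S100A1, S100A3 and S100A13, and coloured points the 9 S100 genes described, with names for those beyond ±0.5. In KO cells the neighbours lie on both sides of 0 with a median of -0.08 and S100A9 is the highest point, and in OE cells S100A6 is the S100 gene furthest from 0.

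Binding partners of the S100 proteins moved both ways in KO cells: of 13 tested, 5 were higher than in control, 6 lower and 2 did not pass, with 4 higher and 5 lower in the corrected fit. Of all tested genes 26.0% were higher and 25.9% lower, and 24.7% and 20.8% in the corrected fit. The partners' median log2 fold change was -0.17, and 0.049 in the corrected fit. ANXA2, the annexin that holds S100A10, had 5928 ± 407 CPM in KO and 4194 ± 201 CPM in control cells (SD, n = 3 each, 0.50 ± 0.08, adjusted p = 2.31e-05, corrected 0.66). MYH9, the myosin heavy chain bound by S100A4, had 721 ± 9.36 CPM in KO and 2002 ± 95.0 CPM in control cells (SD, n = 3 each, -1.47 ± 0.08, adjusted p = 1.12e-12, corrected -0.92). AHNAK, a giant scaffold that binds the S100A10 and annexin A2 complex, was lower in KO than in control by 3.64-fold (-1.87 ± 0.12, adjusted p = 3.92e-11, corrected -1.21). EZR, the ezrin bound by S100P, was also lower (-0.55, corrected -0.66). IQGAP1, a cytoskeletal scaffold, was lower as well (-0.57, corrected -0.26), and lies in the longest decile, which had a median of -0.45. CACYBP, the partner of S100A6, had 97.2 ± 3.13 CPM in KO, 84.0 ± 12.1 CPM in OE and 67.7 ± 4.11 CPM in control cells (SD, n = 3 each), higher than control in both (adjusted p = 0.000146 in KO and 0.0294 in OE). In OE against control ANXA5 (0.27) and EZR (0.22) were higher too, ANXA11 (-0.27) was lower and 9 did not pass, where 18.6% of all tested genes passed. None of these OE calls held in every fit with 1 library left out. The adjusted p rose to 0.209 for ANXA5, 0.160 for EZR, 0.0657 for ANXA11 and 0.140 for CACYBP.

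Of 7 genes for cell surface receptors of extracellular S100 proteins, 6 could be tested, and in KO against control 4 were higher, 1 was lower and 1 did not pass, with a median log2 fold change of 0.41. In the corrected fit 3 were higher and 1 lower, with a median of 0.44. Of all tested genes 51.9% passed in the fitted values and 45.5% in the corrected fit. MCAM, a receptor of S100A8 and S100A9, had 55.4 ± 4.45 CPM in KO, 25.8 ± 3.92 CPM in OE and 17.0 ± 3.27 CPM in control cells (SD, n = 3 each), higher than control in KO (1.70 ± 0.15, adjusted p = 1.75e-09) and in OE (0.60 ± 0.15, adjusted p = 0.00497, up to 0.0504 with 1 library left out). BSG, or basigin, a receptor of S100A9, had 1267 ± 41.9 CPM in KO and 876 ± 5.09 CPM in control cells (SD, n = 3 each; 0.53 ± 0.07, adjusted p = 1.58e-06). CD36 was low, with 3.56 ± 0.468 CPM in KO and 0.363 ± 0.126 CPM in control cells (SD, n = 3 each; 3.24 ± 0.59, adjusted p = 6.73e-05), NPTN, the neuroplastin that binds S100A8, was higher in the fitted values only (0.29, corrected 0.14 with adjusted p = 0.131), and ALCAM was lower (-0.32). AGER had 1.70 ± 1.00 CPM in KO, 3.91 ± 1.58 CPM in OE and 2.59 ± 0.611 CPM in control cells (SD, n = 3 each). It did not pass in KO against control (-0.55 ± 0.45, adjusted p = 0.327) and passed as lower in KO than in OE (-1.12 ± 0.44, adjusted p = 0.0313). KO and OE libraries overlapped for AGER, and this call was lost in fits with 1 library left out (adjusted p up to 0.187). TLR4 had too few counts to be tested, with 6, 12 and 14 counts in the KO libraries and none in the OE and control libraries. With a floor of 3 counts put in place of the empty groups, its share of counts in KO came to 11.7-fold that in control and 13.8-fold that in OE. Mates may have been counted separately, so fewer fragments than counts may stand behind these values, and they are not lower bounds.

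Among 13 transcription factors of the AP-1, C/EBP, p53 and other families known to act on S100 genes, 5 were higher, 3 lower and 5 did not pass in KO against control, with a median log2 fold change of 0.28, where 51.9% of all tested genes passed. FOS, an immediate early AP-1 subunit, had 110.2 ± 8.73 CPM in KO, 12.8 ± 1.53 CPM in OE and 14.7 ± 0.941 CPM in control cells (SD, n = 3 each; 2.90 ± 0.12 in KO against control, adjusted p = 4.92e-14, corrected 2.81). JUNB (0.58) and TP63 (0.29) were higher and FOSL2 (-0.62) was lower in KO. Of the C/EBP genes, named after their values were seen, CEBPB (0.28, adjusted p = 0.0197, corrected 0.22 with adjusted p = 0.0404) and CEBPD (0.31, adjusted p = 0.0287, corrected 0.24 with adjusted p = 0.114) were higher in KO than in control. CEBPA did not pass (0.38, adjusted p = 0.0567), although it did in the corrected fit (0.48, adjusted p = 0.0176). With the length trend alone removed, none of them passed: CEBPB (-0.024, adjusted p = 0.857), CEBPD (-0.057, adjusted p = 0.722) and CEBPA (0.18, adjusted p = 0.397). KO and control libraries overlapped for CEBPB. In OE against control 3 of the 13 were higher, 3 lower and 7 did not pass, where 18.6% of all tested genes passed, with KLF4 (0.69 ± 0.11, adjusted p = 0.000109), FOSL1 (1.01 ± 0.18, adjusted p = 0.000223) and CEBPB (0.36 ± 0.10, adjusted p = 0.0111) among the higher and CEBPA (-0.59 ± 0.17, adjusted p = 0.0150) among the lower. CALM2 (0.96 ± 0.09, adjusted p = 1.42e-08), which encodes another EF-hand calcium sensor, and CALM3 (0.21, adjusted p = 0.0317) were higher in KO than in control, and the epidermal CALML5 (-1.17 ± 0.30, adjusted p = 0.00213) was lower. In OE against control CALM2 (0.29 ± 0.09, adjusted p = 0.0343) was higher. Several calls of this paragraph did not hold in every fit with 1 library left out. In KO against control the adjusted p rose to 0.0602 for TP63, 0.112 for CEBPB, 0.146 for CEBPD and 0.160 for CALM3. In OE against control it rose to 0.0828 for CEBPB, 0.0662 for CEBPA and 0.163 for CALM2. CALM2 has processed copies in the genome, so reads that map to more than 1 copy may be left uncounted, which makes its level uncertain.

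The gene whose profile was nearest to each S100 gene was sought among the 10592 tested genes that averaged 5 CPM or more, as the smallest root mean square difference of centred log2 CPM over the 9 libraries. FOS was nearest to S100A9, at 0.219 log2 units, and CYB5A, a cytochrome b5, was nearest to S100A6, at 0.174. TP53TG1, a long non-coding RNA, was nearest to S100P, at 0.130, and the processed pseudogene ENSG00000218175 to S100A8, at 0.203. For the other genes the nearest were CD151 for S100A14 at 0.0396, ZMAT2 for S100A10 at 0.0483, CAV2 for S100A11 at 0.0520, PCGF5 for S100A16 at 0.0586, JKAMP for S100A2 at 0.0755 and ZNF226 for S100A4 at 0.145. Among the 10 genes, S100A6 and S100P were nearest to each other, at 0.242, and S100A10 and S100A11 at 0.0953. Other genes were nearer than the partner in these pairs: 8 to S100A6, 55 to S100P, 39 to S100A10 and 47 to S100A11. With 9 libraries in 3 groups, such a likeness rests on few independent values.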

How the data were processed

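Poly-A selected RNA of 9 N/TERT libraries was sequenced as paired-end reads of 150 bases, per the labels' protocols, and libraries were grouped by genotype label into KO, OE and control (3 each). The deposited files hold whole-number read counts per gene, made by the authors with featureCounts (Subread 1.5.2, Ensembl release 101, GRCh38, per the file headers). Named in the submitters' processing notes, without their roles, are DESeq2, FastQC, featureCounts 0.1.0 and HISAT2 1.03. The header's command sets no option for pairs, strand, multi-mapping or overlap, and 63.3% to 68.7% of counts from 1 to 20 were even, so mates may have been counted separately and antisense partners cannot be told apart.

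Counts were fitted in R 4.3.3 with limma 3.58.1 and edgeR 4.0.16: filterByExpr with a minimum count of 10 (13390 genes), TMM scaling, all 9 libraries, group as the only term (common biological coefficient of variation 10.2%), two-sided quasi-likelihood tests and Benjamini-Hochberg adjustment over all tested genes with a threshold of 0.05. CPM are TMM-scaled, values with ± are mean ± SD over 3 libraries or log2 fold change ± SE, and log2 CPM for profiles used a prior count of 2. The corrected fit adds as an offset a loess surface over GC content and log2 exon length (span 0.3), fitted in every library to its log2 CPM minus the average of the 9 libraries (GC content from GENCODE 29, 13341 genes, 99.6%). Libraries of a group differed by more than sampling noise (chi-square 2.74 to 11.6 per degree of freedom). The depth sets 3 counts at 0.225 to 0.475 CPM per library, and floors cover counting error only, and that only where counts are independent.

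Alternatives were DESeq2 1.42.0 size factors and Wald test, no count filter, fits of only the groups compared, a stricter threshold of 0.01, removal of the length trend alone, a block for the replicate number, and the omission of each library in turn. Scripts were tested on simulated counts. Named were the 10 genes, the nearest profile of each, and up to 4 genes by smallest p in each comparison of each list, except 1 that is not reported here. The members and lists were chosen with earlier results of these data known.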

Additional observations from a re-analysis of the deposited data

How the results depend on the processing

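Of the 30 tests of a gene in a comparison, all 30 kept their direction and their side of the threshold under DESeq2's size factors and without a count filter. DESeq2's Wald test ended the call of S100A2 in KO against control (adjusted p = 0.0732), and a threshold of 0.01 those of S100A10 and S100A11. With the exon length trend alone removed, 4 genes were higher and 2 lower in KO against control, and 4 were higher and 2 lower in KO against OE. The share of all tested genes called in that fit is not given here. With the length and GC trend removed these counts were 4 and 3 in both comparisons. Length alone gave log2 fold changes in KO against control of -0.17 for S100A10, -0.24 for S100A11, -0.041 for S100A14 and -0.26 for S100A16, and length with GC gave -0.25, -0.35, -0.14 and -0.26, and -0.011 for S100A2. In KO against OE, S100A10, S100A11 and S100A14 came to -0.16, -0.47 and -0.017 with length removed and to -0.21, -0.54 and -0.087 with length and GC removed. The cause was not tested. Ranked by CPM not divided by length, 4 genes kept their rank in KO, 4 in OE and 4 in control cells.

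With 1 library left out at a time, 6 to 9 genes were higher and 0 lower in KO against control, 0 were higher and 2 to 3 lower in OE against control, and 7 to 8 were higher and 0 lower in KO against OE. The share of all tested genes called in each of these refits is not given here, so these counts cannot be set against it. Ranks per kilobase were kept by 10 genes in KO and by 8 to 10 in OE and in control cells. Over all tested genes, same-numbered libraries did not deviate together (correlations from -0.0772 to 0.0660, and from -0.0859 to 0.109 for different numbers). Whether the numbers pair libraries in only part of the genes was not tested. With the replicate number as a block S100A4 passed in KO against control (log2 fold change 0.55, adjusted p = 0.0495) and in KO against OE (0.58, adjusted p = 0.0329), and no other call changed. Protein identity between the genes was not analysed here. S100A4 and S100A8 had the lowest levels and the largest SE of the 10, 0.25 log2 units for both in KO against control. Fitted with only the KO and control libraries, 9 genes were higher, S100A4 among them, and the share of all tested genes called in that fit is likewise not given.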
